A study of Mus musculus with 6 samples.

Results

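Genes that make, break down and sense prostaglandins and leukotrienes were examined in colorectal tissue of mice with colitis. The 10 genes were Ptgs1, Ptgs2, Ptges, Ptgis, Tbxas1, Hpgd, Ptger2, Ptger3, Ptger4 and Alox5, chosen by symbol from the 18268 genes of the table, and each was listed once. All mice were C57BL/6 and, by the methods of the study, males aged 8 to 10 weeks. Colitis was induced by 7 days of 2.5% dextran sulfate sodium (DSS), which damages the mucosa, in the water they drank. Over 6 days, 3 mice were gavaged with the plant compound berberine (BBR, 100 mg/kg in the study's methods) and 3 with sulfasalazine (SASP, 200 mg/kg), which gut bacteria split into 5-aminosalicylate and sulfapyridine. Mice without DSS and mice given DSS alone were not analysed here, so each value below compares the drugs with each other and gives no effect of either drug alone. The labels name the same colorectal source for all 6 samples, whereas the study describes its berberine sequencing on rectal and its sulfasalazine sequencing on colon samples, so a difference of sampling site and a difference of drug cannot be told apart. The labels do not say that each sample was a separate mouse, although the study describes 3 per group, and p-values measure the spread between these samples only.

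Prostaglandins and leukotrienes are signalling lipids made from arachidonic acid, which phospholipases release from membranes. Cyclooxygenases convert it to prostaglandin H2, and terminal synthases turn that into prostaglandin E2, prostacyclin or thromboxane, whereas lipoxygenases open the path to leukotrienes. In the gut, prostaglandin E2 acts on epithelium, muscle, nerves and immune cells through 4 receptors, and it is known for protecting the mucosa as well as for its part in inflammation, while leukotriene B4 is known for drawing in neutrophils.

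Of the 10 genes, 4 had all 3 BBR values above all 3 SASP values: the cyclooxygenases Ptgs1 and Ptgs2, the prostacyclin synthase Ptgis and the prostaglandin E2 receptor Ptger3, an arrangement found in 21.3% of all tested genes and in 13.1% of those too low to test. Of the 7 members abundant enough to test, only Ptger3 differed at an adjusted p under 0.05, at about 2.5 times the SASP level, and 3.82% of all tested genes were higher by this rule. Its call was marginal (limma adjusted p = 0.0489) and was kept in 5 of 14 alternative settings. The breakdown enzyme Hpgd was the most abundant member in every mouse. Its groups overlapped, as did those of Ptges, Ptger4, Tbxas1, Ptger2 and Alox5. Among 28 related genes tested, the phospholipase Pla2g4f and the synthase Ptges3 were called as lower with BBR, as were 5.04% of all tested genes. The leukotriene receptor Ltb4r2 was also called as lower, but it passed the filter only through the SASP mice.

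The promoters of Ptgs1, Ptgs2 and Ptger3 are shown because these genes had separate groups, and that of Ptger4 because it is the receptor of the same ligand whose groups overlapped. Each run is the 250 bases before the annotated start site, 5′ to 3′ on the strand of the gene, from RefSeq (build GRCm38.p6). Capitals mark GGGCGG or its reverse complement, a GC box, and in Ptger4 also CCAAT.
Ptgs1, chr2:36230176-36230425, plus strand: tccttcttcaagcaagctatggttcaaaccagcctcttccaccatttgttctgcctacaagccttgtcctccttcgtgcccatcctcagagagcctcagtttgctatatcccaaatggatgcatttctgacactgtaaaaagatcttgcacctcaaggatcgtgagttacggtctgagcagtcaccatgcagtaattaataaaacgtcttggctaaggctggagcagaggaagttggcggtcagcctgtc
Ptgs2, chr1:150099781-150100030, plus strand: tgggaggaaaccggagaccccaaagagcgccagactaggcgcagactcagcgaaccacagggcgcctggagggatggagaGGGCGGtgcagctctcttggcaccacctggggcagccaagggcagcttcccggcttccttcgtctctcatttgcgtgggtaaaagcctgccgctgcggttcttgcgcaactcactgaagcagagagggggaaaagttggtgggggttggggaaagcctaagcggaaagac
Ptger3, chr3:157566626-157566875, plus strand: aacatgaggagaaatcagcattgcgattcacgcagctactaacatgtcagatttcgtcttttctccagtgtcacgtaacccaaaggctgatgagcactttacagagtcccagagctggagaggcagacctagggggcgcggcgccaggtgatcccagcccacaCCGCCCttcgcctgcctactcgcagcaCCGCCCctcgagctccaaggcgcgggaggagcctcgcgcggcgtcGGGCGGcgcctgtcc
Ptger4, chr15:5244188-5244437, minus strand: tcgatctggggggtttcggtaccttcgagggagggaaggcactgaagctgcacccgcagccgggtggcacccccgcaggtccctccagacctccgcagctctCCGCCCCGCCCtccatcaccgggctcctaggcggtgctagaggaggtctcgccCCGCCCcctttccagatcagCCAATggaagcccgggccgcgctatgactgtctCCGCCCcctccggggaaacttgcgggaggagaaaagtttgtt
The table held 9 of the 10 members, and Ptgis had no entry. GGGCGG on either strand was found in 6 of the 9, against 32.7% of all 32851 promoters. Ptger3 held it 3 times, the nearest match ending 10 bases before the start, and Ptgs1 did not hold it. CCAAT was found in 2 of the 9 (33.8% of all promoters) and TATAAA in 1 (12.4%). No match was found for CACGTG (in 6.02% of all promoters), for CGTCA, part of the cyclic AMP response element (17.8%), for the kappaB site (3.9%) or for the CArG box (1.47%). All were searched on both strands. These matches only describe the letters of the 250 bases before each annotated start. Bases further upstream or past that start were not searched, so an absent match does not mean that a gene lacks the site. Of the Ptgs2 window, 183 bases lie within annotated exons of the antisense gene Ptgs2os.

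Values are FPKM, fragment counts divided by transcript length and library size, so levels of different genes can be compared per length. The files give no read totals. Read numbers below are approximate, since depth was estimated by taking short genes seen in a single mouse to hold 1 read, and by that estimate SASP libraries were slightly deeper. Epithelial and muscle genes that define colorectal tissue were abundant in all mice, with Epcam at 833 to 1101 FPKM. BBR mouse 3 stood apart: across genes its log2 values correlated (Pearson's r, a description) at 0.953 and 0.949 with the other BBR mice, against 0.987 between those mice and 0.982 to 0.989 within SASP. Its correlation with SASP mouse 2 was also 0.953, so by this measure it was no closer to its own group than to that mouse. Genes were tested with limma on log2(FPKM + 1) where at least 3 mice reached 1 FPKM, and 1069 of 12072 differed at an adjusted p under 0.05, which is 8.86% (3.82% higher and 5.04% lower with BBR). Fold changes are differences of log2(FPKM + 1) between groups, which understate changes of low genes. The median over all tested genes was 0.10, and median-ratio scaling shifted it by -0.12 and called 499 higher and 1184 lower genes against 461 and 608, with Ptger3 called in both.

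Levels spanned a wide range. Averaged over the 6 mice, Hpgd was at 93.9 FPKM, Ptgs1 at 7.98, Ptges at 4.55, Ptger4 at 3.79, Ptger3 at 3.66, Ptgis at 3.52, Ptgs2 at 1.04, Alox5 at 1.03, Tbxas1 at 0.883 and Ptger2 at 0.408 FPKM. Hpgd lay above Ptgs1 in each mouse, whereas Ptges, Ptger4, Ptger3 and Ptgis overlapped over the mice and had no firm order, and neither had Ptgs2, Alox5 and Tbxas1. Ptgs2, Ptger2 and Tbxas1 did not reach 1 FPKM in 3 mice and were not tested. At the estimated depth Ptger2 rested on about 18 to 42 reads per mouse, Tbxas1 on 51 to 88, Alox5 on 46 to 92 and Ptgs2 on 33 to 186. Ptgis rested on about 24 reads in SASP mouse 1 and on up to 193 in the others.

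**Figure D1:**
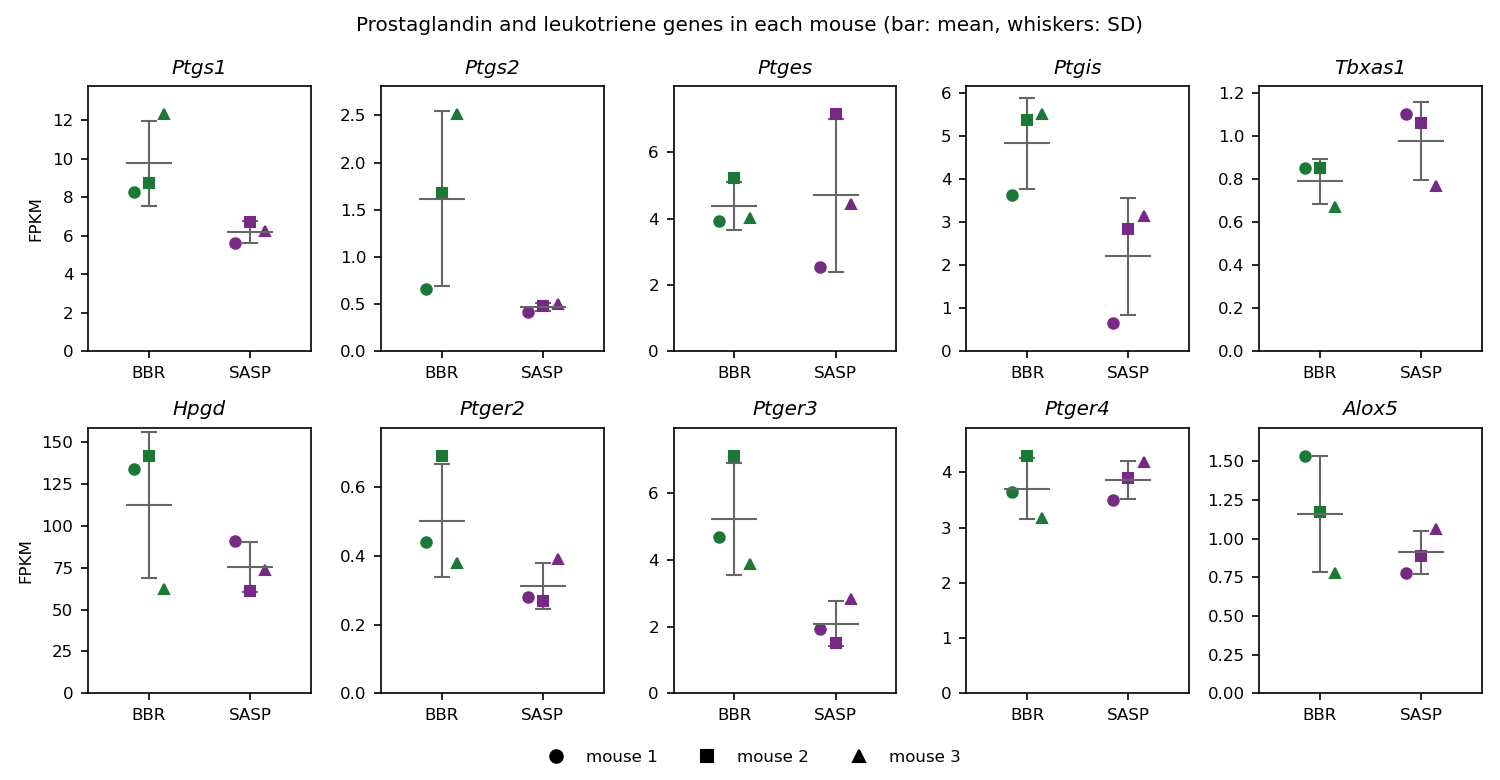
FPKM (vertical axes, each from 0) of the 10 members in 3 BBR and 3 SASP mice, with 1 symbol per mouse, the group mean as a bar and the SD as whiskers. The groups are apart for Ptgs1, Ptgs2, Ptgis and Ptger3, and BBR mouse 3 (triangle) is the highest mouse for the first 3 of these and the lowest BBR mouse for Ptger3.

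Cyclooxygenases begin prostaglandin synthesis, with Ptgs1 (Gene ID 19224) as the constitutive form and Ptgs2 (19225) as the inducible one. Ptgs1 was at 8.25, 8.75 and 12.3 FPKM with BBR and 5.62, 6.71 and 6.25 FPKM with SASP. The groups did not overlap, and BBR mouse 3 was the highest. The log2 fold change was 0.57 (SE 0.17, 95% interval 0.17 to 0.96), which missed the threshold over all genes (limma adjusted p = 0.0746). Without BBR mouse 3 the change was smaller, 0.40, and passed it (adjusted p = 0.0342).

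Ptgs2 is among the inflammation genes that the study examined. In colitis mice, the study reports that SASP lowered Ptgs2 by RNA-seq and that BBR lowered it by qPCR. Here, where only the drugs are compared, Ptgs2 was at 0.66, 1.68 and 2.51 FPKM with BBR and 0.42, 0.48 and 0.50 FPKM with SASP. All BBR mice lay above the SASP mice, but they differed from each other by more than the gap between the groups, and BBR mouse 1 was close to SASP. The mean was 1.62 ± 0.927 FPKM with BBR and 0.467 ± 0.0416 FPKM with SASP (n = 3 each, ± SD), or 1.17 FPKM in BBR without mouse 3. Ptgs2 lay below the filter. In the fit without a filter its log2 difference was 0.77 (SE 0.26, limma adjusted p = 0.138), so no difference was called.

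Within a mouse, the ratio of Ptgs2 to Ptgs1 in FPKM was 0.0800, 0.192 and 0.204 with BBR and 0.0747, 0.0715 and 0.0800 with SASP. Ptgs1 was thus the more abundant cyclooxygenase transcript in each mouse, by 4.90 to 14.0 times. BBR mouse 1 equalled the highest SASP mouse in this ratio, and the other BBR mice lay above all SASP mice.

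Terminal synthases set which prostanoid is made. Ptgis (19223), which makes prostacyclin, was at 3.62, 5.38 and 5.50 FPKM with BBR and 0.65, 2.83 and 3.14 FPKM with SASP. Its groups did not overlap, with SASP mouse 1 far below the rest. The log2 fold change of 0.96 (SE 0.36) did not pass the threshold (limma adjusted p = 0.126), and it fell to 0.53 without SASP mouse 1 (adjusted p = 0.230). Ptges (64292), the inducible prostaglandin E synthase, was at 3.93, 5.22 and 4.01 FPKM with BBR and 2.55, 7.14 and 4.44 FPKM with SASP. SASP mice held both its lowest and its highest value, and the difference was -0.01 with an interval of -0.71 to 0.69 on the log2 scale. Tbxas1 (21391), the thromboxane synthase, was at 0.85, 0.85 and 0.67 FPKM with BBR and 1.10, 1.06 and 0.77 FPKM with SASP. The groups overlapped through SASP mouse 3, and the gene lay below the filter.

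Hpgd (15446) oxidises prostaglandins to inactive products. It was at 134, 141 and 62.2 FPKM with BBR and 91.0, 61.3 and 73.9 FPKM with SASP. BBR mice 1 and 2 lay above all SASP mice, and BBR mouse 3 lay among them. The log2 fold change was 0.50 (SE 0.32, 95% interval -0.26 to 1.26, limma adjusted p = 0.315). BBR mouse 3 decided this call, since without it the change was 0.88 and passed the threshold (adjusted p = 0.0121). In that fit 3 members passed as higher, Ptgs1, Hpgd and Ptger3, where 22.3% of all genes did.

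The FPKM ratio of Ptgs2 to Hpgd, inducible synthesis set against breakdown, was 0.00494, 0.0119 and 0.0403 with BBR and 0.00462, 0.00783 and 0.00677 with SASP. BBR mouse 1 lay within the SASP range and BBR mouse 3 far above it. Hpgd exceeded Ptgs2 in each mouse, from 24.8 times in BBR mouse 3 to 217 times in SASP mouse 1.

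Receptors of prostaglandin E2 differ in the pathway they couple to: Ptger2 and Ptger4 raise cyclic AMP, and Ptger3 mainly lowers it. Ptger3 (19218) was at 4.69, 7.09 and 3.88 FPKM with BBR and 1.94, 1.51 and 2.82 FPKM with SASP. Its lowest BBR value lay above its highest SASP value, and BBR mouse 2 was the highest. The mean was 5.22 ± 1.67 FPKM with BBR and 2.09 ± 0.668 FPKM with SASP (n = 3 each, ± SD). The log2 fold change was 1.00 (SE 0.24, 95% interval 0.43 to 1.56), just past the threshold (limma adjusted p = 0.0489). It was the 1 member called of 7 tested. Of the 6 fits that omitted 1 mouse, only that without BBR mouse 3 kept the call, with changes of 0.79 to 1.16 and adjusted p-values of 0.0155 to 0.173 over the 6 fits.

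Ptger4 (19219) was at 3.65, 4.29 and 3.18 FPKM with BBR and 3.50, 3.90 and 4.19 FPKM with SASP. The groups overlapped over most of their range. The difference was -0.05 on the log2 scale with an interval of -0.39 to 0.28 (limma adjusted p = 0.821). Ptger2 (19217) was at 0.44, 0.69 and 0.38 FPKM with BBR and 0.28, 0.27 and 0.39 FPKM with SASP. Its groups overlapped, and the gene lay below the filter.

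Set against each other within a mouse, Ptger3 and Ptger4 changed rank between the groups. The FPKM ratio of Ptger3 to Ptger4 was 1.28, 1.65 and 1.22 with BBR and 0.554, 0.387 and 0.673 with SASP. Ptger3 was thus the more abundant of this pair in all 3 BBR mice and the less abundant in all 3 SASP mice, BBR mouse 3 included. The mean ratio was 1.39 ± 0.233 with BBR and 0.538 ± 0.144 with SASP (n = 3 each, ± SD). This ratio is unchanged by any 1 scaling factor per library, but it rests on the transcript lengths behind FPKM. As it includes the member that was called, it was not tested.

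Alox5 (11689) encodes the lipoxygenase that starts leukotriene synthesis. It was at 1.53, 1.17 and 0.78 FPKM with BBR and 0.78, 0.89 and 1.06 FPKM with SASP. The lowest value was shared by a mouse of each group, and the log2 fold change of 0.17 had an interval of -0.24 to 0.57 (limma adjusted p = 0.526).

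The wider pathway was described with a list of 60 genes, the members included, of which 59 were in the table and 35 were tested. Of these 35, Ptger3 was called as higher with BBR and Ltb4r2, Pla2g4f and Ptges3 as lower, so that 3 of 28 tested genes outside the members were lower, where 5.04% of all tested genes were. Of these 3, Ltb4r2 passed the filter only through the SASP mice, where it was high. Its part of the count was thus tied to the filter, and no excess over that share is read from it. The median log2 fold change was 0.18, beside 0.10 over all tested genes, with 22 values above 0 and 13 below, most of them not called.

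Ltb4r2 (57260), a receptor of low affinity for leukotriene B4 that is found on epithelium, was at 0.62, 0.57 and 0.72 FPKM with BBR and 3.17, 2.02 and 3.49 FPKM with SASP. The lowest SASP mouse was well above the highest BBR mouse, and SASP means were 4.54 times as high. The log2 fold change was -1.23 (SE 0.18, limma adjusted p = 0.0161). BBR mouse 3 gave no exception, and without it the change was -1.27 (adjusted p = 0.00826). Without BBR mouse 1 the call was lost (adjusted p = 0.0651). Ltb4r2 passed the filter only through the SASP mice, where it was high, so being tested and being lower with BBR were tied together. Without any 1 of the SASP mice it fell below the filter, and in the fit with no filter its adjusted p was 0.0291.

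Ltb4r1 (16995), the high-affinity receptor on leukocytes, was at 0.43, 0.48 and 0.85 FPKM with BBR and 1.76, 1.04 and 2.17 FPKM with SASP. Its groups did not overlap either, but its change of -0.73 missed the threshold (limma adjusted p = 0.0684). It too passed the filter only through the SASP mice. The other 4 receptors of leukotrienes and lipoxins on the list lay below the filter.

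Pla2g4f (271844), a cytosolic phospholipase, was at 16.0, 16.7 and 18.3 FPKM with BBR and 30.4, 29.5 and 29.6 FPKM with SASP. Both groups were tight and lay far apart, and the log2 fold change was -0.78 (SE 0.10, limma adjusted p = 0.00985). Of the phospholipases, 6 of 10 listed were tested and only Pla2g4f was called. Its call was lost without BBR mouse 1 (adjusted p = 0.0529), SASP mouse 1 (0.0660) or SASP mouse 3 (0.0742). Pla2g10, the most abundant secreted phospholipase of the list, was at 96.7 to 117 FPKM with BBR and 80.8 to 96.1 FPKM with SASP (log2 fold change 0.30, limma adjusted p = 0.136). Pla2g5 had the largest change of the 6 tested phospholipases, -1.04 on the log2 scale. It was lower in all BBR mice but missed the threshold (limma adjusted p = 0.0587). Of the 6, 3 were higher with BBR and 3 lower.

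Ptges3 (56351), named as a prostaglandin E synthase and also known as the p23 cochaperone of Hsp90, was at 42.6, 53.6 and 50.2 FPKM with BBR and 71.2, 67.7 and 72.3 FPKM with SASP. It was lower in all BBR mice, by a log2 difference that limma called (-0.52, SE 0.11, adjusted p = 0.0385), and it kept its call only without BBR mouse 3 among the fits that left out a mouse. Cbr1, a carbonyl reductase, was higher in all BBR mice at 132 to 160 FPKM against 74.6 to 123 FPKM, with a change of 0.67 that missed the threshold (limma adjusted p = 0.0729). Of 8 tested synthases, Ptges3 was the 1 called.

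Slco2a1 (24059), which carries prostaglandins into cells for breakdown, was at 56.7, 53.8 and 44.7 FPKM with BBR and 98.1, 66.9 and 102 FPKM with SASP. All BBR mice lay below all SASP mice, and the log2 fold change of -0.75 (SE 0.18) narrowly missed the threshold (limma adjusted p = 0.0505). The reductase Ptgr2 was at 24.6 to 35.4 FPKM with BBR and 24.99 to 28.8 FPKM with SASP, with overlapping groups. Its exons share 32.0% of their bases with a gene on the other strand, Gm47484. Whether reads were counted by strand is not given in the sources used here, so such reads cannot be told apart. Among the members, the largest such share was 15.3%, for Ptger4 and the pseudogene Gm15937.

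Tbxa2r, the thromboxane receptor, lay below the filter. It was at 0.88, 1.51 and 0.91 FPKM with BBR and 0.20, 0.26 and 0.38 FPKM with SASP, about 7 to 48 reads per mouse. All BBR mice were above all SASP mice, and in the fit without a filter the log2 difference was 0.70 (limma adjusted p = 0.0457), where 1.23% of all genes were called as higher. Alox15, a lipoxygenase that acts on several fatty acids, was at 0.09, 0.07 and 0.09 FPKM with BBR and 1.34, 0.45 and 0.81 FPKM with SASP. It was lower in each BBR mouse, at about 3 to 4 reads, and the difference of -0.76 did not pass in the fit without a filter (limma adjusted p = 0.0628). Alox12 was at 0.16 to 0.25 FPKM with BBR and 0.06 to 0.28 FPKM with SASP. Of leukotriene synthesis genes, 9 of 10 were tested and 0 were called in limma, with Mgst3 and Mgst2 the most abundant at 212 to 283 and 63.2 to 143 FPKM.

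**Figure D2:**
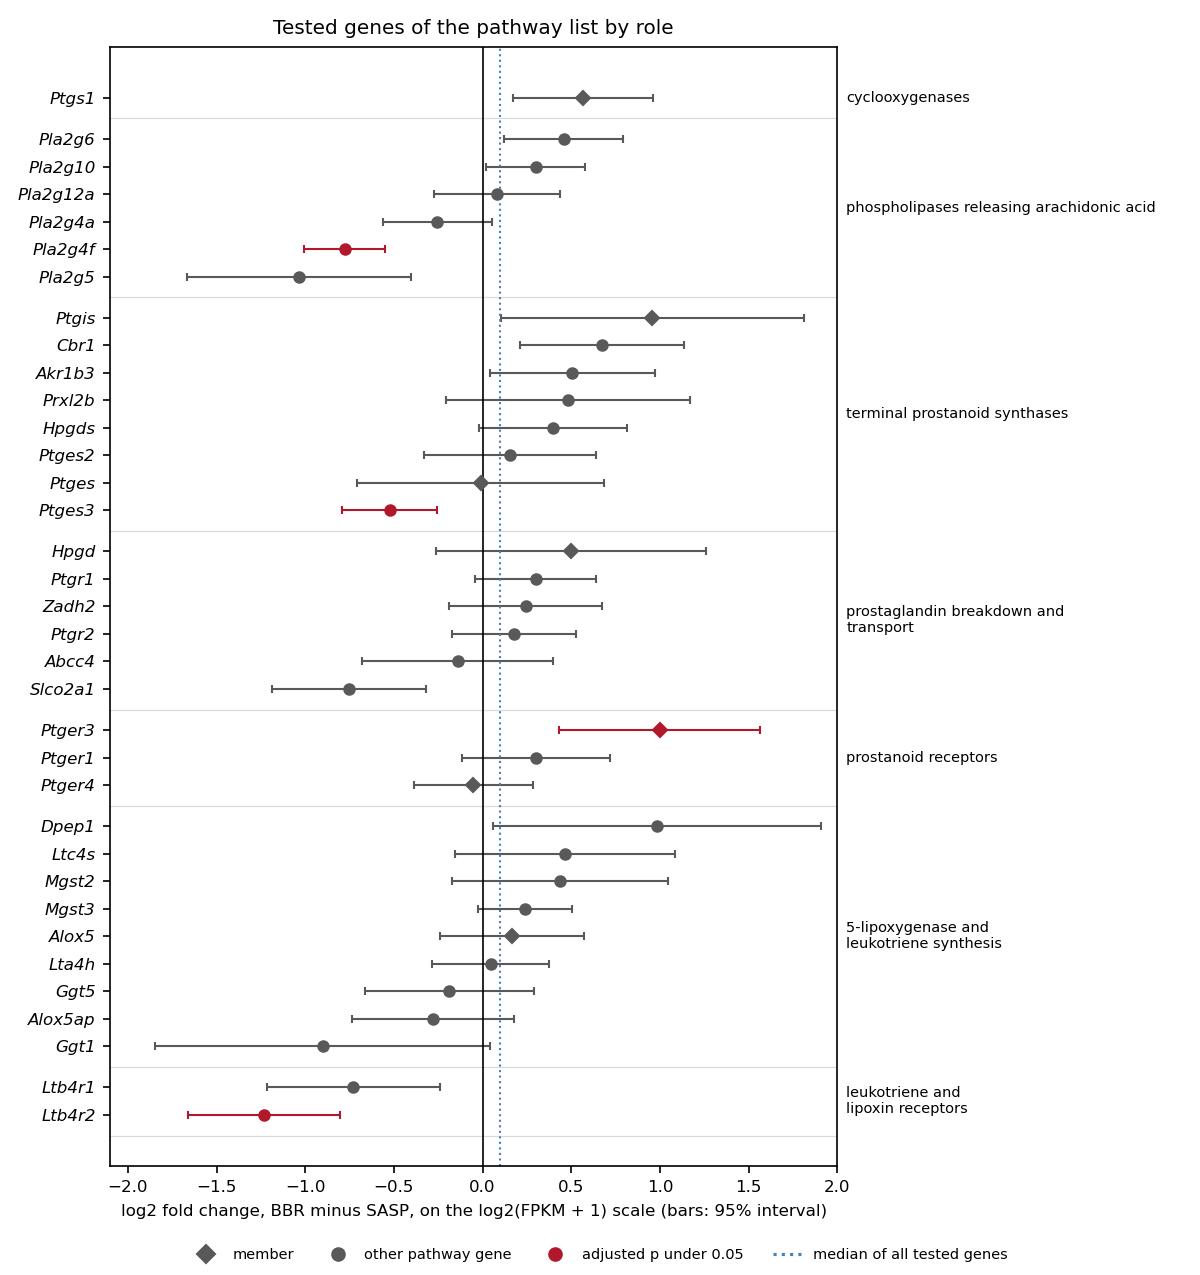
Log2 fold change (BBR minus SASP, horizontal axis, 95% intervals as bars) of the 35 tested genes of the pathway list, grouped by role, with members as diamonds, genes past the threshold in red and the median of all tested genes as a dotted line. Ptger3 is the 1 red gene right of 0, and Pla2g4f, Ptges3 and Ltb4r2 lie left of it.

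Markers of some cell types moved with the groups, while those of others overlapped. In bulk tissue, fewer cells of a type and less RNA per cell cannot be told apart. Summed over 8 smooth muscle markers, the level was 2755, 2834 and 6554 FPKM with BBR and 697, 2198 and 1601 FPKM with SASP. BBR mouse 3 was thus the highest and SASP mouse 1 the lowest, as for Ptgs1, Ptgs2 and Ptgis. All 8 markers were higher under BBR, 6 of them without overlap between the groups, and 0 were called in limma. Once the fit held their mean log2 level as a covariate, the change of Ptgs1 was 0.23 (limma adjusted p = 0.562) and that of Ptgis 0.09 (0.905), while Ptger3 had a change of 1.21 without passing (0.204). The change of Hpgd was larger in this fit, 1.29 (0.160), that of Ptges was -0.56 (0.443), and no member passed. That fit called 18 genes, which is 0.149% of those tested. The covariate itself rose with BBR, so in these mice its share and that of the drug cannot be told apart. Whether muscle content accounts for any of these changes was not tested.

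Fibroblast markers summed to 312 to 414 FPKM with BBR and 138 to 244 FPKM with SASP, with all 8 higher and 4 called. Endothelial markers summed to 23.2 to 39.7 FPKM and 13.0 to 18.0 FPKM, with BBR mouse 2 highest, as for Ptger3, and 6 of 6 tested markers higher, of which Emcn was called. Their part in the differences of the members was not tested.

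Epithelial markers summed to 5689 to 6224 FPKM with BBR and 5991 to 7192 FPKM with SASP. Of 8, Krt18 was called as higher and Vil1 as lower. Krt20 (mean 360 FPKM with BBR and 773 FPKM with SASP, limma adjusted p = 0.0613) and Cldn7 (453 and 622 FPKM, 0.0831) were lower in all BBR mice but missed the threshold. By log2 means, 5 of the 8 were higher and 3 lower with BBR. Tuft cell markers, of cells known to express Ptgs1 and Alox5, overlapped at 10.5 to 13.9 FPKM and 9.60 to 13.2 FPKM, with 0 of 5 tested called in limma and Pou2f3 and Il25 under 0.5 FPKM in all mice.

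Macrophage markers summed to 129 to 168 FPKM with BBR and 236 to 260 FPKM with SASP, with Cd14 called as lower among 8. Cd14 (mean 24.8 FPKM with BBR and 92.0 FPKM with SASP) and Lyz2 (76.9 and 105 FPKM) gave most of that difference. Of the others, Mrc1 was higher in all BBR mice (mean 2.83 and 1.87 FPKM, limma adjusted p = 0.102), and Csf1r and Adgre1 had higher BBR means with overlapping groups. Cd68, C1qa and C1qb had lower BBR means, also with overlapping groups. Of the 8 macrophage markers, 3 were thus higher and 5 lower with BBR. Pan-leukocyte markers summed to 10.3 to 18.3 FPKM and 15.4 to 34.8 FPKM, with 5 of 5 lower and 0 called in limma. Granulocyte sums overlapped, at 192 to 567 FPKM and 357 to 536 FPKM, but Ly6g alone gave most of that sum. S100a8 (0, 0 and 6.19 FPKM with BBR, 18.5, 20.6 and 23.1 FPKM with SASP) was called as lower. S100a9 was at 0.11, 0.11 and 5.25 FPKM with BBR and 6.91, 7.19 and 10.7 FPKM with SASP. It was lower in all BBR mice but missed the threshold (limma adjusted p = 0.0746). Of 5 tested markers, 4 were lower and 1 higher with BBR, and Mpo was at 0.02 FPKM or less in all mice. Mast cell markers summed to 9.97 to 13.7 FPKM with BBR and 6.48 to 8.45 FPKM with SASP. Kit gave most of that sum and was higher in all BBR mice (mean 9.25 and 4.96 FPKM, limma adjusted p = 0.0562). Mcpt1 and Mcpt2 had lower BBR means with overlapping groups. The other 5 of 8, Cpa3, Fcer1a, Ms4a2, Mcpt4 and Tpsb2, were under 0.5 FPKM in all mice.

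**Figure D3:**
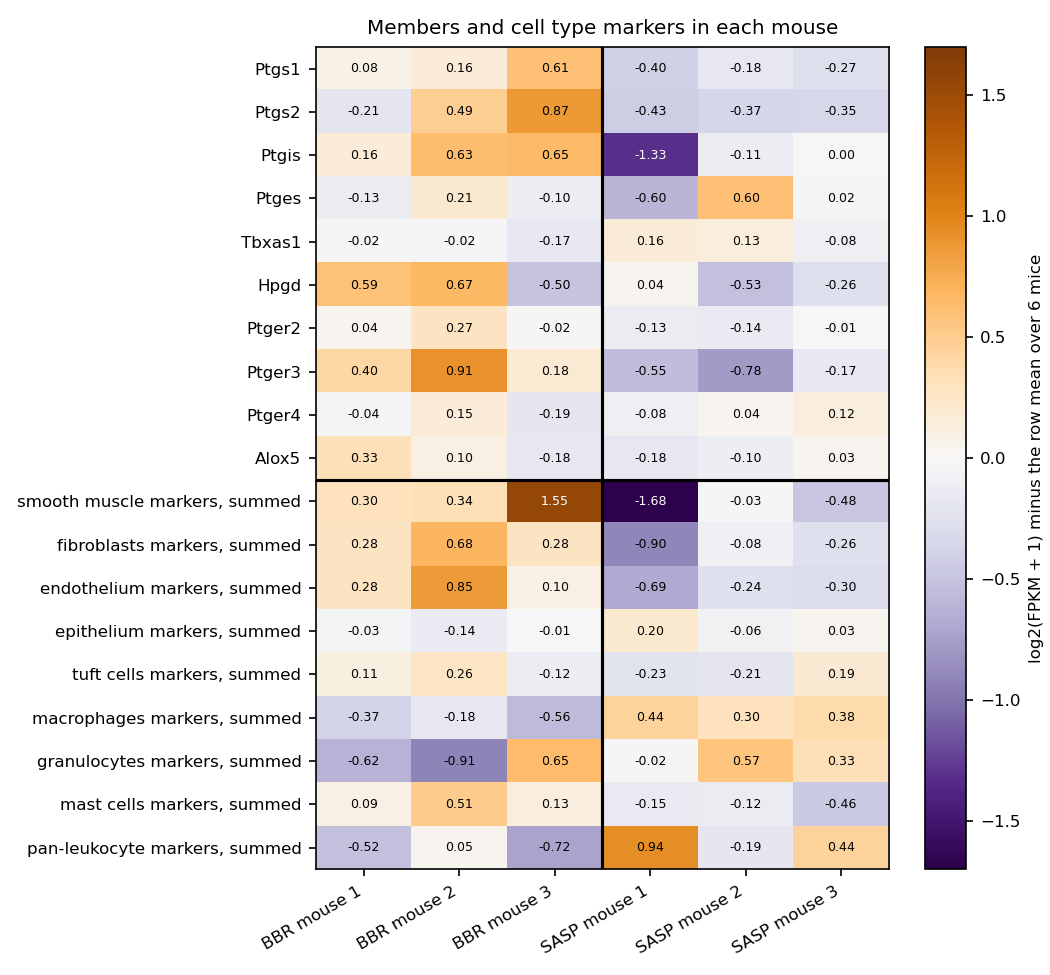
Log2(FPKM + 1) of the 10 members (top) and of summed cell type markers (bottom) in each mouse, minus the mean of the row over 6 mice, with orange above and purple below that mean. BBR mouse 3 is highest and SASP mouse 1 lowest for Ptgs1, Ptgs2, Ptgis and smooth muscle, and BBR mouse 2 is highest for Ptger3, fibroblasts and endothelium.

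The genes most like the members with the largest changes were found by the root mean square distance between centred log2 values over the 6 mice. Nearest to Ptger3 were Ccl5 (distance 0.14 on the log2 scale), a chemokine gene, Zfp36l1 (0.15), which encodes an RNA-binding protein, and Cldn5 (0.16), a claudin gene of endothelium. Ccl5 was at 3.39, 5.88 and 2.68 FPKM with BBR and 1.15, 0.62 and 1.47 FPKM with SASP, with the same order of mice as Ptger3. Nearest to Ptgis were Pcp4, Fxyd1 and Lims2, at distances of 0.08, 0.09 and 0.09. Fxyd1, a regulator of the sodium pump, was at 22.9, 29.2 and 34.2 FPKM with BBR and 7.02, 16.8 and 18.0 FPKM with SASP, and SASP mouse 1 was the lowest, as for Ptgis.

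Array weights, which give less weight to libraries far from the fit, called 4 members as higher, Ptgs1, Hpgd, Ptger3 and Alox5, but also 38.4% of all tested genes. By an unadjusted p of at most 0.05, a rule added after the data were seen, Ptgs1, Ptgis and Ptger3 were higher, as were 18.4% of all tested genes.

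**Figure D4:**
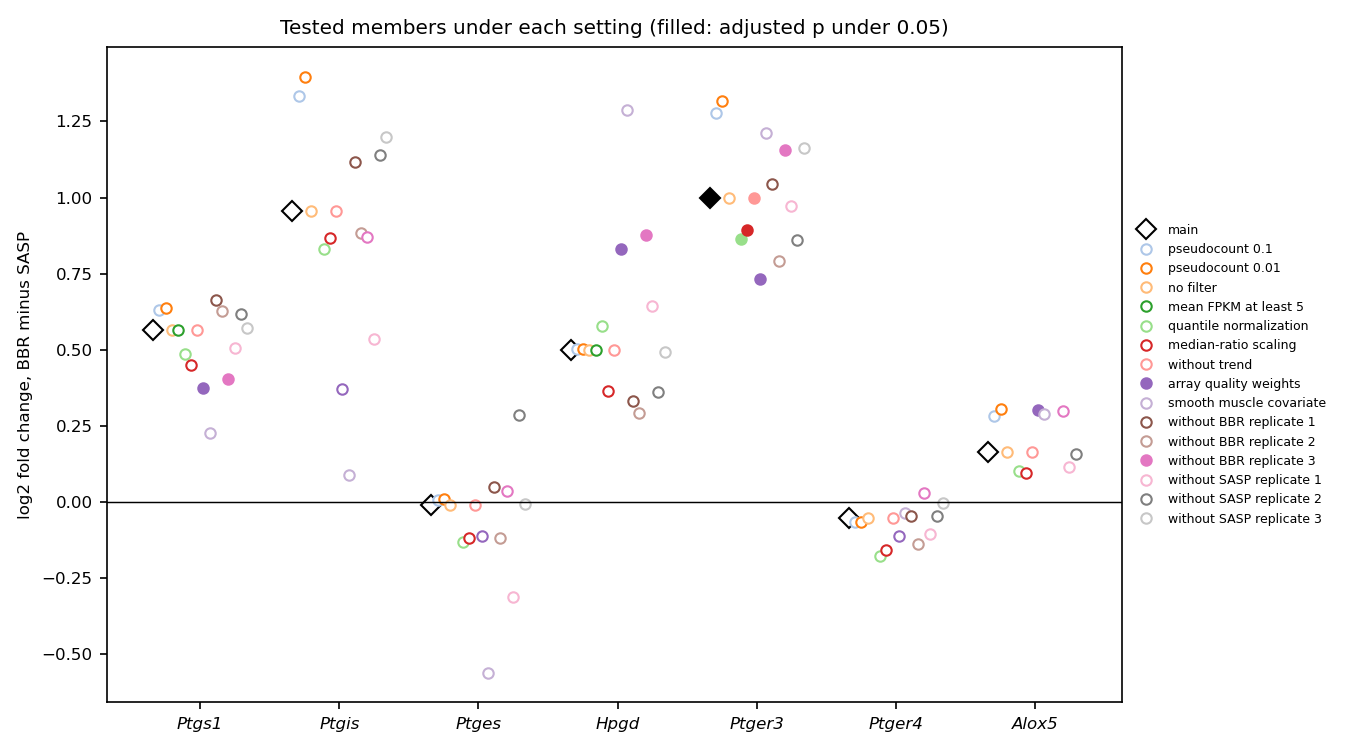
Log2 fold change (BBR minus SASP, vertical axis) of the 7 tested members in the reported fit (diamond) and under each other setting that could test them (circles), filled where the adjusted p is under 0.05. Ptgs1, Ptgis, Hpgd, Ptger3 and Alox5 stay above 0 throughout, while Ptges and Ptger4 cross it.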

How the data were processed

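RNA-seq covered 6 colitis mice, 3 per drug, grouped by treatment label. Replicate numbers followed accession order and pair no mice. The authors calculated FPKM values per gene with RSEM 1.2.12 after filtering reads with SOAPnuke and aligning them with Bowtie2 2.2.5, and deposited them rounded to 2 decimals. The submitters' processing notes name build mm9, so gene coordinates were not printed, and the GRCm38 positions of promoters belong to the RefSeq sequences only. The annotation is not given in the sources used here. The study describes depletion of ribosomal RNA and nanoball sequencing, of rectal samples for BBR and colon samples for SASP, and the labels an Illumina kit and colorectal tissue. RSEM divides reads that fit several genes.

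FPKM were transformed as log2(FPKM + 1). Genes with at least 1 FPKM in at least 3 of 6 samples were compared with limma 3.58.1 (R 4.3.3, empirical Bayes with a trend, two-sided), adjusted by Benjamini-Hochberg over all 12072 genes, with a threshold of 0.05. The scripts were tested on simulated data. Approximate reads used the longest GENCODE M21 transcript per Gene ID and rest on 28 to 44 genes per sample, so no interval was given. Exon overlaps are from GENCODE M21.

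The members and lists were chosen with earlier results of these data known. Named were all members, called pathway genes, the 2 most abundant other genes of each role, 3 nearest genes for the 2 members with the largest changes, and up to 3 markers per list. The values of 1 gene named by this rule are not reported here. Pla2g5 and markers named beyond the 3 per list, for being near 0, called, apart between the groups or of a stated direction, were chosen after their values were seen. Lists were described by counts and medians. Alternatives covered pseudocounts, filters, scaling, the variance trend, array weights, a smooth muscle covariate and leaving out each mouse.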

Additional observations from a re-analysis of the deposited data

How the results depend on the processing

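The 1069 differing genes became 608 with no filter, 1737 with quantile normalization, 1683 with median-ratio scaling (499 higher and 1184 lower), 7126 with array weights (4636 higher and 2490 lower) and 18 with the smooth muscle covariate, and 51 to 4018 on omitting 1 mouse, the fewest without SASP mouse 3 and the most without BBR mouse 3. At an unadjusted p of at most 0.05, the threshold in the study's methods, added after seeing the data, 3837 genes, 3 members (Ptgs1, Ptgis and Ptger3) and 14 pathway genes passed. The 1 member called became 0 with a pseudocount of 0.1 or 0.01, no filter or the covariate. It became 4 with array weights (Ptgs1, Hpgd, Ptger3 and Alox5, where 38.4% of all genes passed as higher), and 0 to 3 without single mice. With a mean of at least 5 FPKM only 2 members were tested and 0 called, and Ptger3 was not among those tested. The 4 pathway genes called became 25 with array weights, 0 with the covariate, and 0 to 16 without single mice, with 0 without BBR mouse 1, SASP mouse 1 or SASP mouse 3. They became 2 with a mean of at least 5 FPKM, where Pla2g4f and Ptges3 kept their calls and Ptger3 and Ltb4r2 were not tested. Ptger3 narrowly lost its call with both pseudocounts (limma adjusted p = 0.0513 and 0.0520). It lost it by more with no filter (0.0850), with the covariate (0.204) and without any 1 mouse other than BBR mouse 3 (0.102 to 0.173). Its change was at least 0.73 in every setting that tested it.

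Ptges turned to 0.0056 and 0.0081 with pseudocounts of 0.1 and 0.01, and ranged from -0.31 to 0.29 on omitting 1 mouse, above 0 without BBR mouse 1 (0.049), BBR mouse 3 (0.037) or SASP mouse 2. Ptger4 ranged from -0.14 to 0.031, above 0 without BBR mouse 3, and Mgst2 turned to -0.13 with the covariate. Of 253 values for named tested genes under alternatives, 205 kept direction and side of the threshold, 22 lost a call, 19 gained one and 7 changed sign. The causes were not tested. No paired analysis was possible because replicate numbers only name the mice. Genes near 1 FPKM rest on few reads.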
